A study of Mus musculus with 30 samples.

Results

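The response of 6694c2 pancreatic cancer cells to interferon gamma (IFNγ) was measured by bulk RNA sequencing in 6 libraries, 3 from cells given IFNγ at 100 ng/mL and 3 from vehicle cells. These are 6 of the 24 bulk libraries of the series, which also holds the same line with interferon beta (IFNβ, 1000 U/mL) or a STING agonist (225 µg/mL) and the mouse melanoma line B16F10 with the same 4 conditions, each in 3 libraries. The samples were chosen by their labels, and the genes described are the 18070 of 49315 counted genes that had at least 10 reads over the 12 libraries of 6694c2. 6694c2 is a line grown from a tumor of a female mouse whose alleles include 1 floxed and 1 normal p53 allele and Pdx-cre, so that vehicle and IFNγ cells alike carry alleles recombined by a Cre that is expressed from a pancreatic promoter. The labels give the genotype of all 6 as C57BL/6, their source as tumor and the treatment of the vehicle cells as NA, whereas the study's methods describe cultured cells exposed for 24 h. The composition of the vehicle is not given in the sources used here. The comparison addresses how the tumor cells themselves respond to the cytokine, with no immune cell added.

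IFNγ is the type II interferon, made by T cells and NK cells. It binds the receptor chains IFNGR1 and IFNGR2, the kinases JAK1 and JAK2 are activated, and STAT dimers bind GAS elements (gamma-activated sequences) in promoters such as that of Irf1, whose product then acts on further genes. Type I interferons such as IFNβ signal through another receptor and mainly through a complex with STAT2 and IRF9 that binds ISRE elements. In tumor cells IFNγ is known for raising antigen presentation, interferon-inducible GTPases, chemokines for T cells and the checkpoint ligand PD-L1.

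Reads on genes ranged from 17450954 to 19224703 in the vehicle libraries and from 17486635 to 31844655 in the IFNγ libraries. Levels are given as CPM, reads of a gene per 1000000 reads on genes, with library sizes scaled by the trimmed mean of M-values (TMM). CPM are not divided by gene length, so levels are compared between libraries and not between genes. Log2 CPM correlated at r = 0.981 to 0.985 across genes between libraries of a group, as a description. The replicates are numbered in the labels but not said to be separate cultures, so p-values measure the spread between these libraries, which may be technical. Transcripts of melanocytes were present at a low level in all 6 libraries. A set of 120 genes specific to B16F10 was chosen at 50 CPM or more in B16F10 vehicle. Their means in both groups compared here had to be under 2% of that level. Their median level was 0.501 to 0.559% of that in B16F10 in the vehicle libraries, and 0.556, 0.86 and 0.272% in IFNγ libraries 1, 2 and 3. The choice keeps these percentages low, so they describe differences between libraries and do not measure a carry-over. The melanocyte list took 0.00877 to 0.00891% of the reads with vehicle and 0.00374 to 0.0131% with IFNγ, and 0 of its 12 members were called, with Dct, an enzyme of melanin synthesis, at a mean of 29.6 and 28.4 CPM. Genes over 10 times higher in a B16F10 group than in both groups compared here are named as such below. In bulk libraries fewer cells of a type and less RNA per cell cannot be told apart.

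Of the 18070 genes tested, 1627 (9.00%) were higher and 1175 (6.50%) lower with IFNγ (edgeR quasi-likelihood test, Benjamini-Hochberg adjusted p under 0.05). These shares are the background for the counts of list members called against vehicle below. Rises were the larger changes. Over 2-fold, 509 genes (2.82%) were higher and 138 (0.764%) lower, with median log2 fold changes of 2.69 and -1.48. Among the 509, 315 exceeded 4-fold, 212 exceeded 10-fold and 47 exceeded 100-fold, while among the 138 only 32 exceeded 4-fold and 11 exceeded 10-fold. The median log2 fold change of all tested genes was -0.01. The called genes that rose over 2-fold took 0.553 to 0.577% of all reads with vehicle and 4.26 to 4.37% with IFNγ. Of the 509, 446 were annotated as protein coding, 45 were over 10 times higher in B16F10 and 82 were under 1 CPM in both groups, as were 41 of the 138.

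**Figure D1:**
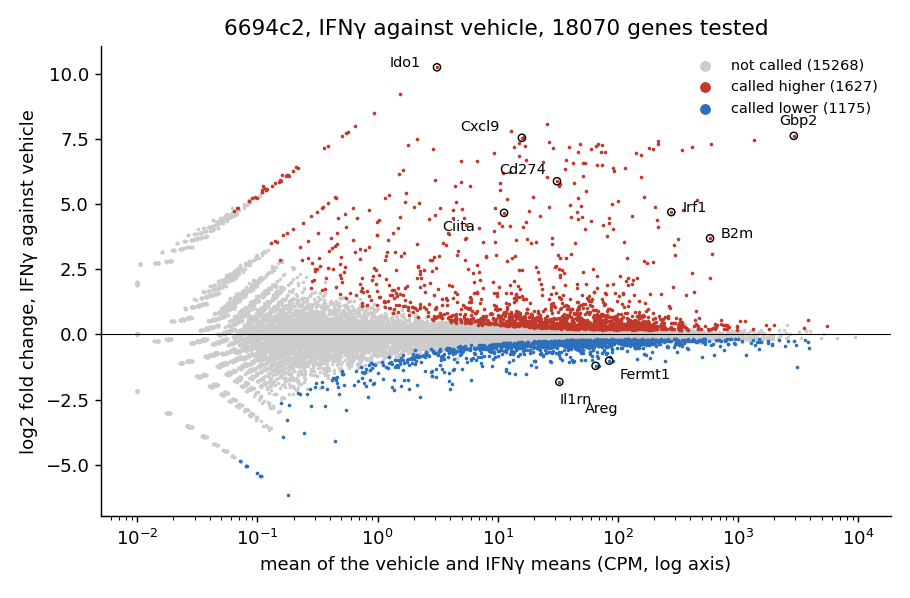
Log2 fold change with IFNγ (vertical axis) against the mean of the vehicle and IFNγ means in CPM (log axis; means under 0.01 CPM are drawn at 0.01) for the 18070 genes tested in 6694c2, 3 libraries a group. Red points are the 1627 genes called higher and blue points the 1175 called lower. Circles mark named genes, such as Gbp2 at 7.64 and Il1rn at -1.82, which are not the largest changes. Among called genes 212 rises and 11 falls exceeded 10-fold, and 47 rises and 0 falls exceeded 100-fold.

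The receptor was transcribed in both groups, and some of the signalling genes rose. Of 22 genes for the receptors, JAK kinases, STATs and feedback regulators, 9 were higher and 2 lower, with a median log2 fold change of 0.13. The background was 9.00% higher and 6.50% lower. Ifngr1, the ligand-binding chain, was at 119, 117 and 114 CPM with vehicle and 113, 106 and 113 CPM with IFNγ, and was not called (edgeR adjusted p = 0.488). Ifngr2, the second chain, went from 76.8 ± 1.77 (SD, n = 3) to 59.9 ± 3.78 CPM and was called lower, at a log2 fold change of -0.36 ± 0.0709 (SE). Of the kinases, Jak2 rose from 84.5 ± 7.39 to 127 ± 5.74 CPM, while Jak1 and Tyk2 were not called.

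Stat2, a partner of IRF9, was at 2.81, 3.19 and 3.68 CPM with vehicle and at 36, 41.6 and 36.5 CPM with IFNγ, so the groups were far apart. It rose 11.8-fold (log2 3.56 ± 0.122, edgeR adjusted p = 4.43e-17). Stat3 rose at a log2 fold change of 2.18, whereas Stat5a, Stat5b and Stat6 were not called. Socs1, the feedback inhibitor of the JAK kinases, went from 2.65, 2.78 and 1.92 CPM to 76.7, 72.6 and 83 CPM, a 31.4-fold rise. The family members, Socs3 (log2 1.27) and Cish (1.26), rose less, and Socs2 was lower at -0.86.

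Irf1 (chr11:53770014-53778374, plus strand), an interferon regulatory factor that IFNγ signalling switches on directly, was at 22.2, 20.4 and 18.9 CPM with vehicle. It was at 555, 520 and 532 CPM with IFNγ, 26.1-fold higher (log2 4.70 ± 0.0786, edgeR adjusted p = 1.42e-22). Of 13 tested genes in the list of interferon regulatory factors, 6 were higher and 1 was lower. The largest change was that of Batf2, a leucine zipper factor induced by IFNγ in macrophages, from 0.858 ± 0.284 to 132 ± 6.25 CPM (log2 7.25). Irf8, best known from myeloid cells, rose from 1.76 ± 0.542 to 30.9 ± 2.67 CPM, and Irf7, a factor for type I interferon genes, from 0.879 ± 0.415 to 71.9 ± 4.8 CPM. Irf9 (log2 3.46) and Irf2 (1.23) rose too, and Irf3 was not called. Of the 2 RefSeq promoters of Irf1, 1 (GRCm38.p6, chr11:53769764-53770063, plus strand, 250 bases before to 50 after the start) is shown because it holds the letters of a GAS element, TTCNNNGAA, given in capitals, and the other (chr11:53770223-53770522) holds neither these nor the ISRE letters.
Irf1: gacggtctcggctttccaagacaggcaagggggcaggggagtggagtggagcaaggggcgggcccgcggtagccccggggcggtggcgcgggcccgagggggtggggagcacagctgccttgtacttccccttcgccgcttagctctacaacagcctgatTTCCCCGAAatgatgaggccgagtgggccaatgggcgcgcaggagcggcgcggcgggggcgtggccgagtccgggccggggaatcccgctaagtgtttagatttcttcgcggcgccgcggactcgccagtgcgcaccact

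**Figure D2:**
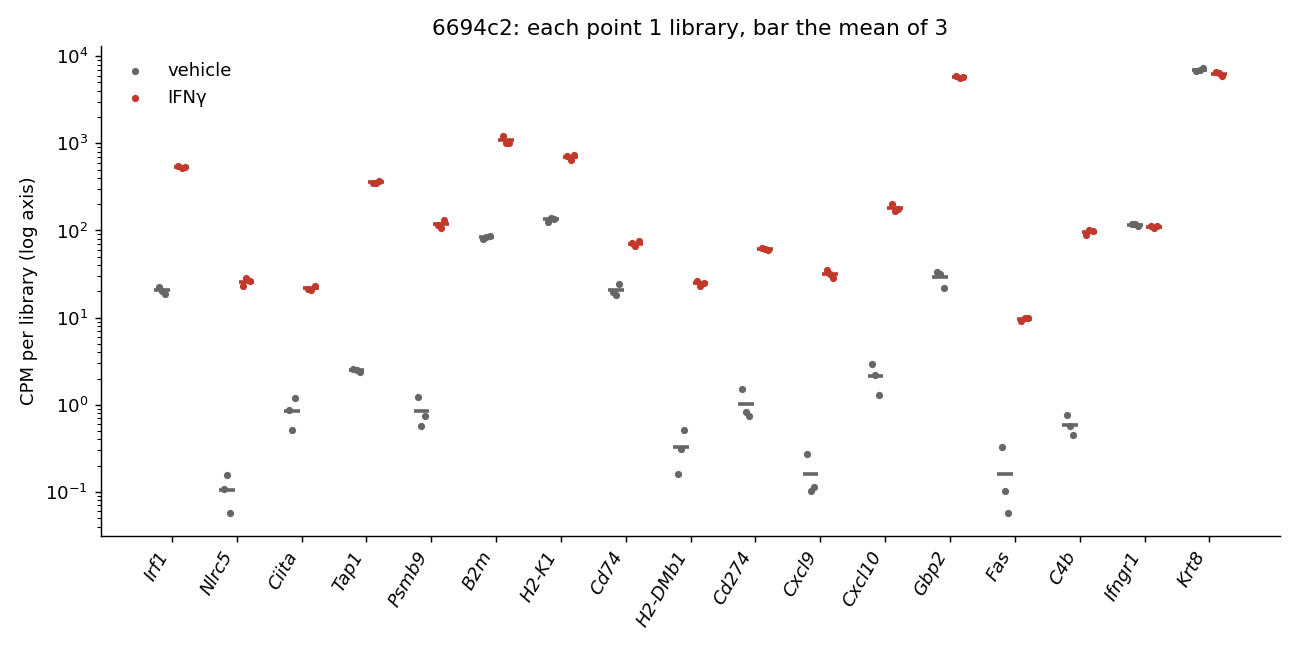
CPM (log axis) of 17 genes in each of the 6 libraries, grey for vehicle and red for IFNγ, with a bar at the mean of 3. For Irf1, Tap1, Gbp2 and Cd274 all IFNγ points lie above all vehicle points, by 26.1-fold to 199-fold in the fit, whereas the points of Ifngr1 and Krt8, which were not called, lie close together; zeros are not drawn.

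The interferon-inducible GTPases, which attack the membranes of vacuoles that hold microbes, had the largest group changes. All 11 guanylate-binding proteins tested were higher, with a median log2 fold change of 7.03, and their summed share of reads went from 0.00322 to 0.00504% with vehicle to 0.743 to 0.779% with IFNγ. Of the 11 genes, 5 lie on chromosome 3 and 6 on chromosome 5. Gbp2 (chr3:142620602-142638008, plus strand) was at 33.5, 31.5 and 22.1 CPM with vehicle and at 5960, 5675 and 5719 CPM with IFNγ. Its rise was 199-fold (log2 7.64 ± 0.14, edgeR adjusted p = 4.01e-22). Gbp4, Gbp7, Gbp3 and Gbp10 rose at log2 fold changes of 7.44, 7.34, 7.08 and 7.20. Gbp2b had 0 reads in the vehicle libraries and 0.365, 0.114 and 0.223 CPM with IFNγ, at least 4.34-fold higher when vehicle is set at 3 reads over the group, and its call was lost with DESeq2 and without vehicle replicate 2 (adjusted p up to 0.0521 over the alternatives). The RefSeq promoter of Gbp2 (GRCm38.p6, chr3:142620413-142620712, plus strand) is shown because the letters of an ISRE element, GAAANNGAAA, lie on its other strand, in capitals here.
Gbp2: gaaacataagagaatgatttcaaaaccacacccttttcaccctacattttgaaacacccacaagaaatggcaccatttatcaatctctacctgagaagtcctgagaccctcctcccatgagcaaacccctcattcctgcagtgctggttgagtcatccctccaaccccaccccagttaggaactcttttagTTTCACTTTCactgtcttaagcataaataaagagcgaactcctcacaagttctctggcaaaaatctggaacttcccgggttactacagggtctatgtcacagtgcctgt

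Of 16 immunity-related GTPase genes, 15 were higher, with a median of 6.94, and Irgq, a divergent member, was not called at 17.7 ± 1.63 and 19.1 ± 3.42 CPM. The list's share of reads went from 0.00727 to 0.0106% to 0.680 to 0.731%. Iigp1 was at 17.9, 17.2 and 10.9 CPM with vehicle and 2783, 2707 and 2651 CPM with IFNγ (log2 7.46 ± 0.138), and Igtp went from 7.23 ± 2.18 to 1171 ± 38.5 CPM. Irgm1, the regulatory member that guards the cell's own membranes, rose from 24.9 ± 2.48 to 891 ± 45.4 CPM (log2 5.16). Tgtp1 and Tgtp2 (log2 7.19 and 7.11) are near-identical copies, as are 9930111J21Rik1 and 9930111J21Rik2 (1.04 and 1.09), and how reads divide within each pair is uncertain. Gm12250, annotated as a processed pseudogene, went from 2.22 ± 0.5 to 280 ± 4.8 CPM. The call of 9930111J21Rik1 was lost without vehicle replicate 3 or without IFNγ replicate 2 (adjusted p up to 0.107 over the alternatives tried).

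Across 93 genes called over 2-fold higher with an IFNγ mean of at least 100 CPM and not over 10 times higher in B16F10, the vehicle level as a percentage of the IFNγ level had a median of 8.42%. It was under 1% for 17 genes and lowest for Gbp2, at 0.502%. Vehicle library 3 had the lowest of the 3 vehicle values for 43 of the 93. Among the 17 genes under 1%, it had the lowest value for all but Mpeg1, Psmb9 and Gbp6. Irgm2, for example, was at 1.18, 0.879 and 0.401% in vehicle libraries 1, 2 and 3. Whether transfer of reads between libraries sets the lowest vehicle values was not tested, and folds over 100 rest on those values.

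Class I antigen presentation rose at its transactivator, its light chain, its peptide transporter and its proteasome subunits. Nlrc5, the transactivator of MHC class I genes, was at 0.108, 0.155 and 0.0566 CPM with vehicle and 22.9, 28.3 and 26.4 CPM with IFNγ (log2 7.84 ± 0.237). Of 19 genes of the class I list 11 were higher and 0 lower, with a median of 2.38. B2m, the light chain of all class I molecules, went from 79.7, 83.8 and 87.3 CPM to 1226, 1016 and 1010 CPM, a 13-fold rise. The classical heavy chains H2-D1 (212 ± 9.13 to 963 ± 58.6 CPM, log2 2.18) and H2-K1 (134 ± 7.36 to 695 ± 50.5 CPM, log2 2.37) rose less on the log2 scale than the nonclassical H2-T23 (4.12), which presents peptides to NK-cell receptors, and H2-Q4 (4.47). H2-M3 rose at 3.50. The H2-Q and H2-T genes are close copies of each other, so the split of reads among them is uncertain. H2-Q1, H2-Q2, H2-Q10, H2-Bl and H2-T3 had group means under 0.2 CPM and were not called.

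Of 11 peptide transport and loading genes 7 were higher and 0 lower. Tap1 (chr17:34187553-34197225, plus strand), a chain of the transporter that carries peptides into the endoplasmic reticulum, had the smallest p of all genes. It was at 2.59, 2.52 and 2.38 CPM with vehicle and 354, 352 and 371 CPM with IFNγ, 144-fold higher (log2 7.17 ± 0.1, edgeR adjusted p = 1.14e-23). Its partner Tap2 rose at a log2 fold change of 6.61, and the loading chaperones Tapbp and Tapbpl at 4.77 and 4.07. The peptide-trimming enzymes Erap1 (log2 3.57) and Lap3 (0.98) rose, whereas the general chaperones Canx and Pdia3 were not called and Calr was called at 0.17, a call lost with a replicate block, with only the 6 libraries compared, with a minimum of 10 reads over 24 libraries and when any 1 of the 6 libraries was left out (adjusted p up to 0.167). All 6 immunoproteasome genes were higher, with a median of 3.92.

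Psmb9, a catalytic subunit of the immunoproteasome, was at 1.24, 0.567 and 0.735 CPM with vehicle and 116, 106 and 131 CPM with IFNγ (139-fold, log2 7.12 ± 0.16). Psmb8 (log2 6.09) and Psmb10 (4.40), the other two inducible catalytic subunits, rose with it, and so did the activator chains Psme1 (3.06) and Psme2 (3.44). The constitutive counterparts Psmb5, Psmb6 and Psmb7 were not called, with log2 fold changes of -0.05, -0.00 and -0.08. Of 16 constitutive proteasome genes 3 were higher (Psma2, Psma5 and Psmb4, at 0.28, 0.43 and 0.35) and Psme4 was lower at -0.24, against a background of 9.00% higher and 6.50% lower. The call of Psma2 was lost without vehicle replicate 1 or IFNγ replicate 1 or 3 (adjusted p up to 0.0814), and that of Psme4 without vehicle replicate 1 or 3 or IFNγ replicate 1 or 3 (up to 0.136). The RefSeq promoter of Psmb9 (GRCm38.p6, chr17:34187281-34187580, minus strand) is shown because the annotated start of Tap1 lies inside it, on the opposite strand. It holds neither the GAS nor the ISRE letters.
Psmb9: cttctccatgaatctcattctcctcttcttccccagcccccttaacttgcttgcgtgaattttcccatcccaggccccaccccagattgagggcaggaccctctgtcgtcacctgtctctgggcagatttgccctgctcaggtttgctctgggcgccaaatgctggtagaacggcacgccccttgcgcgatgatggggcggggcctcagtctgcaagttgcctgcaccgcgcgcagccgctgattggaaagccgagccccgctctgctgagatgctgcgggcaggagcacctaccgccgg

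MHC class II genes changed unevenly. Ciita, the master regulator of class II transcription, was at 0.864, 0.515 and 1.19 CPM with vehicle and 21.5, 20.5 and 23.1 CPM with IFNγ (log2 4.67 ± 0.206, edgeR adjusted p = 7.66e-15). Of 17 genes in the pathway 8 were higher and 1 lower, with a median of 0.12. H2-DMb1, a chain of the peptide-exchange factor H2-DM, went from 0.162, 0.309 and 0.509 CPM to 26.5, 23.1 and 24.7 CPM (log2 6.24), and its partner H2-DMa from 2.04 ± 0.25 to 10.3 ± 1.46 CPM (2.35). Cd74, the invariant chain, was at 19.5, 18 and 24.3 CPM with vehicle and 70.9, 66.4 and 74.7 CPM with IFNγ (log2 1.78). The antigen-binding chains rose less, H2-Ab1 from 7.86 ± 1.22 to 20.7 ± 4.33 CPM (1.41), H2-Eb1 from 10.5 ± 1.17 to 19.1 ± 2.47 CPM (0.86) and H2-Aa from 9.78 ± 0.863 to 16.1 ± 3.77 CPM (0.73). H2-DMb2 was called lower, from 2.57 ± 0.398 to 1.4 ± 0.385 CPM. The call of H2-DMb2 was lost without vehicle replicate 3 or IFNγ replicate 2 or 3 (adjusted p up to 0.127), and that of H2-Aa with DESeq2, with a robust fit and without IFNγ replicate 3 (up to 0.119). Among the other factors Rfx5 rose (log2 1.60) and Rfxank and Rfxap were not called.

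Transcripts of B cells, which express class II genes constitutively, were found beside these values. Of 10 tested B-cell genes 0 were called, and together they took 0.00272 to 0.00349% of reads with vehicle and 0.00173 to 0.00282% with IFNγ. Ighm, the immunoglobulin heavy chain, was at 13.9, 8.19 and 11 CPM with vehicle and 10.3, 7.01 and 5.73 CPM with IFNγ, and all 10 genes had reads in both groups. The T-cell gene Trac was lower (4.86 ± 0.903 to 3.03 ± 0.406 CPM), with 1 of 4 tested T-cell genes called. Of 9 myeloid genes 1 was higher, Cd68 (0.819 ± 0.258 to 1.71 ± 0.216 CPM), and the dendritic-cell gene Itgax had a vehicle mean of 0.018 CPM and was at 0 with IFNγ. The call of Trac was lost without vehicle replicate 3 (adjusted p up to 0.0514), and that of Cd68 without vehicle replicate 1 or 3 or IFNγ replicate 1 or 2 (up to 0.142). Of 6 fibroblast genes 0 were called, all with group means under 0.6 CPM. The part of these transcripts in the vehicle levels of the class II genes was not tested.

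Of 17 tested checkpoint ligands and costimulatory molecules 10 were higher and 0 lower. Cd274, which encodes the checkpoint ligand PD-L1, was at 1.51, 0.824 and 0.735 CPM with vehicle and at 63, 61.1 and 59.2 CPM with IFNγ. The rise was 59.3-fold (log2 5.89 ± 0.144, edgeR adjusted p = 5.35e-20). Icam1, the ligand of the integrin LFA-1 on T cells, went from 23.5 ± 0.518 to 111 ± 5.82 CPM. Members called higher at smaller log2 fold changes included Lgals3bp (1.64), Nectin2 (0.72), Lgals9 (0.60), Cd47 (0.42), Cd276 (0.39) and Vcam1 (0.30). Tnfrsf14, the HVEM receptor, had 3 reads over the vehicle libraries and 2.08, 2.74 and 1.94 CPM with IFNγ. Cd86 and Cd40 were not called, with group means under 0.5 CPM, and Cd80 and Pdcd1lg2 (PD-L2) had too few reads to be tested. Of 5 NK-cell ligands 1 was higher, Clec2d, the ligand of an inhibitory NK receptor, from 1.09 ± 0.214 to 17.5 ± 0.459 CPM. The RefSeq promoter of Cd274 (GRCm38.p6, chr19:29367188-29367487, plus strand) is shown for comparison with that of Irf1, since it holds neither motif in this window.
Cd274: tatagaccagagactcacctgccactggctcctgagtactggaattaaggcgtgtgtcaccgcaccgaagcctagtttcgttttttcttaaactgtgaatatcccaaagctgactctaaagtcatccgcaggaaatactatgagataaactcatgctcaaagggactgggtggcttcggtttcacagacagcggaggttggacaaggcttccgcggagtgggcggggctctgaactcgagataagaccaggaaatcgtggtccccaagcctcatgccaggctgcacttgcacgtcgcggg

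Cxcl9, a ligand of the chemokine receptor CXCR3 on T cells, was at 0.27, 0.103 and 0.113 CPM with vehicle and 34.9, 31.5 and 28.3 CPM with IFNγ (log2 7.56 ± 0.235). The related ligand Cxcl10 went from 2.92, 2.21 and 1.3 CPM to 200, 168 and 175 CPM (log2 6.39). Cxcl11 had 0 reads with vehicle and 3.18, 2.91 and 3.09 CPM with IFNγ, at least 56.7-fold higher. The RefSeq promoter of Cxcl9 (GRCm38.p6, chr5:92328030-92328329, minus strand), shown as the example of this group, holds neither motif in this window.
Cxcl9: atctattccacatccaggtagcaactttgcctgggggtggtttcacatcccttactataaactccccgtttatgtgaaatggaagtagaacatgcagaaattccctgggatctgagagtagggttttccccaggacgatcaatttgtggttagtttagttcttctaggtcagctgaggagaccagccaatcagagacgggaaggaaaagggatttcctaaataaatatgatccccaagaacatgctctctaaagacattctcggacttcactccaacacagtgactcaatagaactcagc

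Of 30 tested chemokines and growth factors 14 were higher and 1 was lower, Csf2 (GM-CSF), from 7.95 ± 1.89 to 4.77 ± 0.878 CPM. Ccl2, which attracts monocytes, rose from 1.71 ± 0.305 to 9.67 ± 1.57 CPM, and Csf1, which sustains macrophages, from 2.94 ± 0.404 to 20.9 ± 0.908 CPM. The membrane-bound chemokine Cx3cl1 rose at a log2 fold change of 1.27 and Cxcl16 at 0.89. Il18bp, a secreted decoy for IL-18, rose from 0.361 ± 0.0913 to 20.7 ± 1.69 CPM, and Il15ra, which presents IL-15, from 0.366 ± 0.228 to 8.15 ± 0.745 CPM. The neutrophil chemokine Cxcl5 rose at 0.48, while Cxcl1, Cxcl2 and Cxcl3 were not called. Ccl5, which was over 10 times higher in B16F10, Il6 and Ccl7 were not called either, at means under 0.5 CPM. Ccl8 was not in the list and rose from 0 reads to 0.716 CPM, at least 13.3-fold. It was named after its values were seen.

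**Figure D3:**
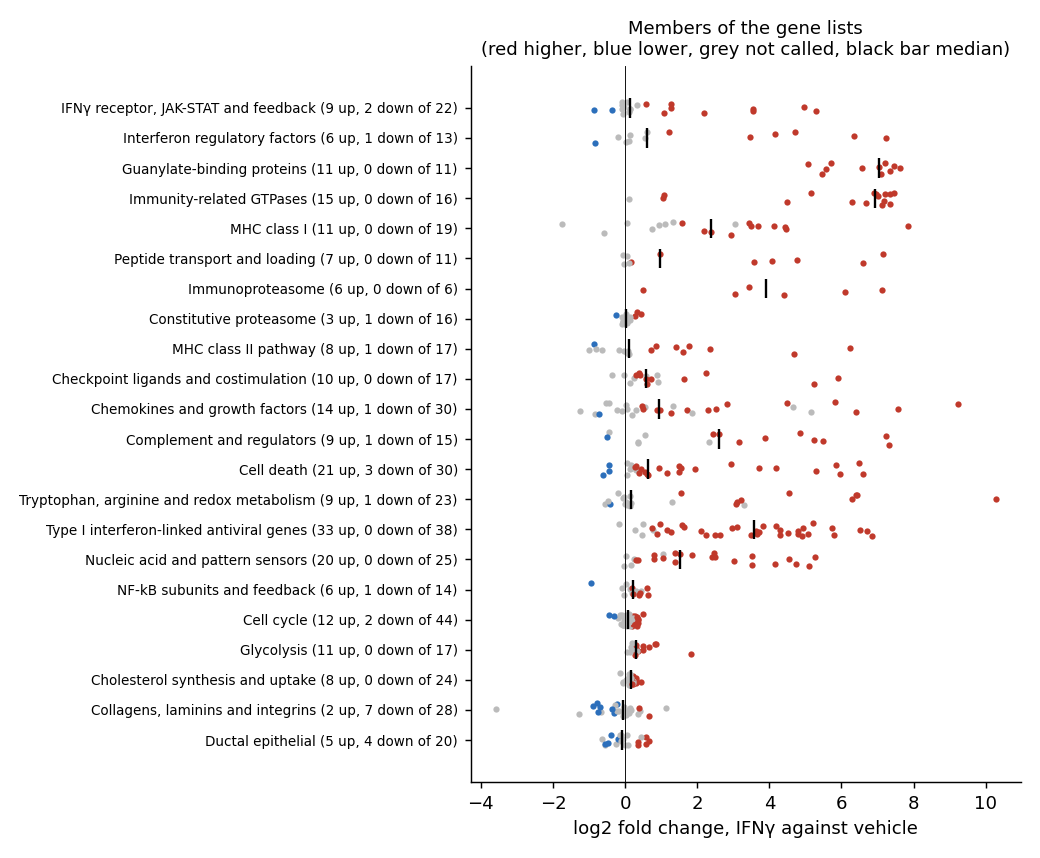
Log2 fold change with IFNγ (horizontal axis) of each tested member of 22 gene lists, with the number called higher and lower of those tested beside each name; points are red where called higher, blue where lower and grey where not called, and a black bar marks the list's median. The guanylate-binding proteins and immunity-related GTPases have medians of 7.03 and 6.94, while the medians of the cell cycle, constitutive proteasome and ductal lists lie near 0.

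Of 30 cell death genes 21 were higher and 3 lower. Fas, the death receptor, was at 0.324, 0.103 and 0.0566 CPM with vehicle and 9.17, 9.92 and 9.87 CPM with IFNγ (log2 5.86 ± 0.356). The death ligand Tnfsf10 (TRAIL) rose at a log2 fold change of 5.96, and Tnfrsf1a, the TNF receptor, from 93.7 ± 0.655 to 275 ± 7.26 CPM. Inflammatory caspases rose, with Casp1 at log2 4.20, Casp4 at 3.72 and Casp12 at 5.29, as did the necroptosis and pyroptosis effectors Mlkl (1.93) and Gsdmd (1.5). Zbp1, a nucleic acid sensor that starts necroptosis, rose from 1.04 ± 0.557 to 101 ± 3.16 CPM, and Bak1, a pore former of mitochondrial apoptosis, at 1.51. Among the lower genes were the survival factor Bcl2 (log2 -0.44) and the pore former Gsdme (-0.60). Bax, Mcl1 and Cflar were not called.

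Of 23 tested genes of tryptophan, arginine and redox metabolism 9 were higher and 1 lower. Ido1, which breaks down tryptophan, had 0 reads with vehicle and 6.2, 5.7 and 6.81 CPM with IFNγ, at least 116-fold higher, and Ido2 rose from 0.894 ± 0.219 to 8.35 ± 0.217 CPM. Wars, the tryptophan tRNA ligase, went from 129, 126 and 127 CPM to 1141, 1072 and 1052 CPM (log2 3.09 ± 0.0655). Acod1, which makes itaconate, had 2 reads over the vehicle libraries and 2.87, 3.65 and 3.22 CPM with IFNγ. Nos2, the inducible nitric oxide synthase, had 0 reads with vehicle and 0.208, 0.342 and 0.7 CPM with IFNγ, at least 7.73-fold higher, and its call was lost with DESeq2 and without IFNγ replicate 3 (adjusted p up to 0.0538). Nampt, of NAD synthesis, rose from 115 ± 0.142 to 338 ± 14.9 CPM. The lower gene was the cystine transporter Slc7a11, from 134 ± 25.8 to 101 ± 12.5 CPM, not called with a robust fit or without vehicle replicate 1 or IFNγ replicate 1 (adjusted p up to 0.0707), and Arg1 and Arg2 were under 0.2 CPM and not called.

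Of 17 glycolysis genes 11 were higher, 0 were lower and 6 were not called, with a median of 0.31, against 9.00% of all genes higher. Hk2, an inducible hexokinase, was at 147, 109 and 120 CPM with vehicle and 375, 493 and 479 CPM with IFNγ (log2 1.84 ± 0.11). Slc16a3, a lactate exporter, rose at a log2 fold change of 0.86, Pfkp at 0.82, Hk1 at 0.66 and the glucose transporter Slc2a1 at 0.49, while Ldha and Pkm were not called. Of 24 genes of cholesterol synthesis and uptake 8 were higher and 0 lower, all by under 0.5 on the log2 scale, against a background of 9.00% higher and 6.50% lower. The number of cholesterol genes called was 3 without IFNγ replicate 3, 4 without vehicle replicate 2 and 5 without IFNγ replicate 2.

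Of 15 tested complement genes and regulators 9 were higher and 1 lower, with a median of 2.60, or 2.32 when the 2 genes with no vehicle read are set at their bound. C4b, of the classical pathway, went from 0.756, 0.567 and 0.452 CPM to 87.7, 101 and 99 CPM (log2 7.32 ± 0.141). The proteases of the same pathway rose with it, C1s1 from 0.212 ± 0.131 to 33.3 ± 2.42 CPM and C1ra from 0.621 ± 0.269 to 18.4 ± 1.22 CPM. Cfb, of the alternative pathway, and C3, which the complement pathways share, rose at 2.60 and 2.44. Clu, a secreted chaperone that restrains the terminal complex, was lower, at 4354, 4538 and 4699 CPM with vehicle and 3322, 3065 and 3147 CPM with IFNγ (log2 -0.51 ± 0.0654). Of 14 NF-kB subunits and feedback genes 6 were higher and 1 lower, against a background of 9.00% higher and 6.50% lower. The higher genes, among them Bcl3 (0.64), Nfkbiz (0.60), Tnfaip3 (0.41) and Rela (0.38), all rose by under 2-fold, and Traf1 was lower at -0.95.

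The 18070 genes tested were also compared between IFNγ and IFNβ in the same fit. With IFNγ, 1382 genes (7.65%) were higher and 1511 (8.36%) lower. Which direction held more genes depended on the setting. The counts were 1473 higher and 1390 lower with RLE size factors and 1521 and 1457 with DESeq2. With a replicate block they were 1332 and 1420. Over the 120 B16F10-specific genes, the median level was 0.276, 0.325 and 0.214% of that in B16F10 in IFNβ libraries 1 to 3. In the IFNγ libraries it was 0.556, 0.86 and 0.272%. These genes were chosen as low in the vehicle and IFNγ libraries, and the IFNβ libraries had no part in that choice. Of the 12 melanocyte genes 7 were higher with IFNγ than with IFNβ and 0 lower, with a median of 1.26. The part of such transcripts in this comparison was not tested. The 2 doses are in different units and were not matched. Of the 509 genes called over 2-fold higher with IFNγ, 262 were higher than with IFNβ, 128 were lower and 119 were not called. Of the 138 over 2-fold lower with IFNγ, 60 were lower than with IFNβ, 0 were higher and 78 were not called.

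Most of the GTPases and all of the immunoproteasome genes tested were higher with IFNγ than with IFNβ. Of the guanylate-binding proteins 10 of 11 were higher than with IFNβ and 0 lower, and the list took 0.0763 to 0.0783% of reads with IFNβ. Gbp2 was at a mean of 285 CPM with IFNβ and 5784 with IFNγ, and Gbp10 at 0.879 and 77.3 CPM. Of the immunity-related GTPases 12 were higher and 3 lower, the 3 being Gm5431, 9930111J21Rik1 and 9930111J21Rik2. Among the 17 class II genes 8 were higher and 1 lower, with a median of 0.02, with Ciita at 0.915 CPM and H2-DMb1 at 0.328 CPM with IFNβ, near their vehicle means of 0.856 and 0.327 CPM. The B-cell list took 0.0057 to 0.00654% of reads with IFNβ and 0.00173 to 0.00282% with IFNγ. Of its 10 genes 2 were lower with IFNγ than with IFNβ and 0 higher. The part of B-cell transcripts in the class II levels was not tested. All 6 immunoproteasome genes were higher, by log2 0.23 (Psmb10) to 2.37 (Psmb8). Cxcl9 was at 0.12 CPM with IFNβ and 31.6 with IFNγ, Fas at 0.238 and 9.65 CPM, Icam1 at 24.5 and 111 CPM, and Irf8 at 2.01 and 30.9 CPM. Irf1 (99.8 against 536 CPM), Socs1 (13.3 against 77.4 CPM) and Cd274 (19.1 against 61.1 CPM) were higher with IFNγ.

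The antiviral genes went the other way. Of 38 genes linked to type I interferon 33 were higher than with vehicle and 0 lower, with a median of 3.57, yet 34 of the 38 were lower than with IFNβ and 2 higher. Oas3, which makes the activator of RNase L, was at 0.432, 0.927 and 0.735 CPM with vehicle and 72, 73.6 and 75.1 CPM with IFNγ, against a mean of 248 CPM with IFNβ. Isg15, a ubiquitin-like modifier, was at a mean of 1.75 CPM with vehicle, 51.9 with IFNγ and 677 with IFNβ, and Ifit1, which binds foreign RNA, at 2.09, 26 and 910 CPM. Rsad2 (viperin) was at 3.45, 2.83 and 4.75 CPM with vehicle and 6.72, 6.67 and 2.99 CPM with IFNγ and was not called, against 531 CPM with IFNβ. Samhd1, which depletes nucleotides, and Ifi27 were the 2 genes higher than with IFNβ, at 584 against 303 CPM and 52.1 against 29.5 CPM. Isg15, Ifit1 and Rsad2 are among 17 of the 38 that were over 10 times higher in B16F10. The IFNγ means of these 17 were 0.259 to 8.91% of their highest B16F10 group mean, with a median of 3.6%, and the vehicle means 0.0775 to 4.82%, with a median of 0.206%. With such genes left out, 17 of the rest were called higher, with a median of 2.64.

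Of 25 tested sensors of nucleic acids and microbial patterns 20 were higher than with vehicle and 0 lower, with a median of 1.53, and 15 were lower and 3 higher than with IFNβ. Ddx58, which encodes the RNA sensor RIG-I, was at 7.02 CPM with vehicle, 80 with IFNγ and 353 with IFNβ. Nod1, a sensor of bacterial cell wall, was at 1.84, 43 and 7.06 CPM, and Tmem173, which encodes STING, at 1.77, 6.49 and 2.58 CPM, and both were among the 3 higher than with IFNβ. Cgas, the DNA sensor upstream of STING, rose from 6.51 ± 0.451 to 11.4 ± 1.44 CPM and Aim2 was not called. Among class I genes H2-D1 and H2-K1 were lower than with IFNβ (963 against 1694 CPM and 695 against 1179 CPM), and B2m (1084 against 961 CPM) and Tapbp (673 against 674 CPM) were not called. Cxcl10 was at 667 CPM with IFNβ against 181 with IFNγ, Irf7 at 910 against 71.9 and Stat2 at 83.7 against 38.

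**Figure D4:**
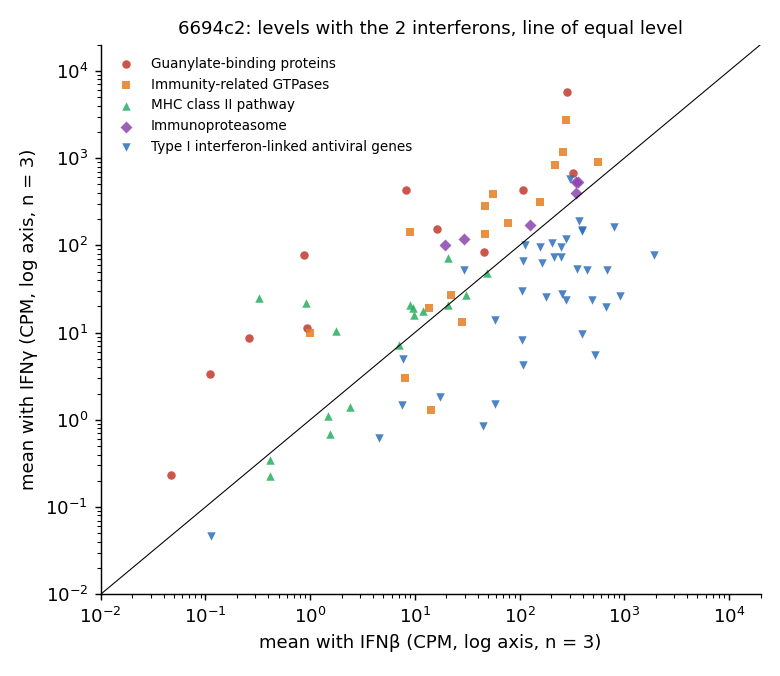
Mean CPM with IFNγ (vertical log axis) against mean CPM with IFNβ (horizontal log axis), 3 libraries each in 6694c2, for members of 5 gene lists marked by colour and shape; the line marks equal level and genes with a mean of 0 are left out. Most guanylate-binding proteins, immunity-related GTPases and immunoproteasome genes lie above the line, and 34 of the 38 antiviral genes were called lower with IFNγ and lie below it.

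Cell cycle genes changed by under 2-fold in 6694c2. Of 44 genes 12 were higher and 2 lower, with a median of 0.08, against a background of 9.00% higher and 6.50% lower over all genes. The largest change was that of Top2a, the DNA topoisomerase of dividing cells, at 899, 832 and 830 CPM with vehicle and 1210, 1281 and 1144 CPM with IFNγ (log2 0.50 ± 0.0654). Ccnd1, cyclin D1, rose from 748 ± 51 to 921 ± 10.6 CPM. Ccne2 (log2 -0.45) and Gins2 (-0.30), of replication onset, were lower, and Mki67, Pcna and Cdk1 were not called. The call of Gins2 was lost without vehicle replicate 2 or IFNγ replicate 3 (adjusted p up to 0.0691). Among inhibitors of the cycle and MYC, 4 of 16 tested genes were higher and 1 lower, against the same background. The inhibitor Cdkn1a, over 10 times higher in B16F10, was not called at 20.2 ± 0.86 and 20.5 ± 1.05 CPM, Cdkn2a and Cdkn2b had too few reads to be tested, and Myc was called higher at 0.21, a call lost without any 1 of the 3 vehicle replicates or IFNγ replicate 3 (adjusted p up to 0.187).

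The IFNγ effect was then compared between 6694c2 and B16F10 by an interaction term over all 24 libraries and 21138 genes. It was more positive in 6694c2 for 955 genes (4.52%) and less positive for 1046 (4.95%), with a median difference of -0.03 on the log2 scale over all genes. The number less positive was 649 without B16F10 vehicle replicate 1 and 685 without B16F10 IFNγ replicate 2. Which direction held more genes depended on the setting. With RLE size factors 1100 genes were more positive and 916 less. The more positive genes were also the larger group whenever 1 B16F10 vehicle or IFNγ library was left out. They stayed the smaller group with a replicate block or with 1 6694c2 library left out. In the cell cycle list it was more positive in 6694c2 for 30 of 44 genes and less positive for 0, with a median difference of 0.34. Mki67, a proliferation marker, was at 278 ± 12.6 and 306 ± 23.1 CPM in 6694c2 and went from 222 ± 30.5 to 137 ± 9.3 CPM in B16F10, and the effects differed by 0.82 ± 0.129 (edgeR adjusted p = 1.19e-05). Ccnd1 went from 342 ± 18.9 to 248 ± 31.3 CPM in B16F10, a difference between the lines of 0.75 ± 0.0963. For the replication licensing gene Mcm2 the difference was 0.59 and for the replication activator E2f2 it was 1.02. Top2a, Foxm1 and Plk1 were also more positive in 6694c2, at 0.35, 0.28 and 0.39, although they did not pass the test in B16F10 itself, and the difference of Foxm1 was not called without 6694c2 IFNγ replicate 3 (adjusted p up to 0.0519).

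**Figure D5:**
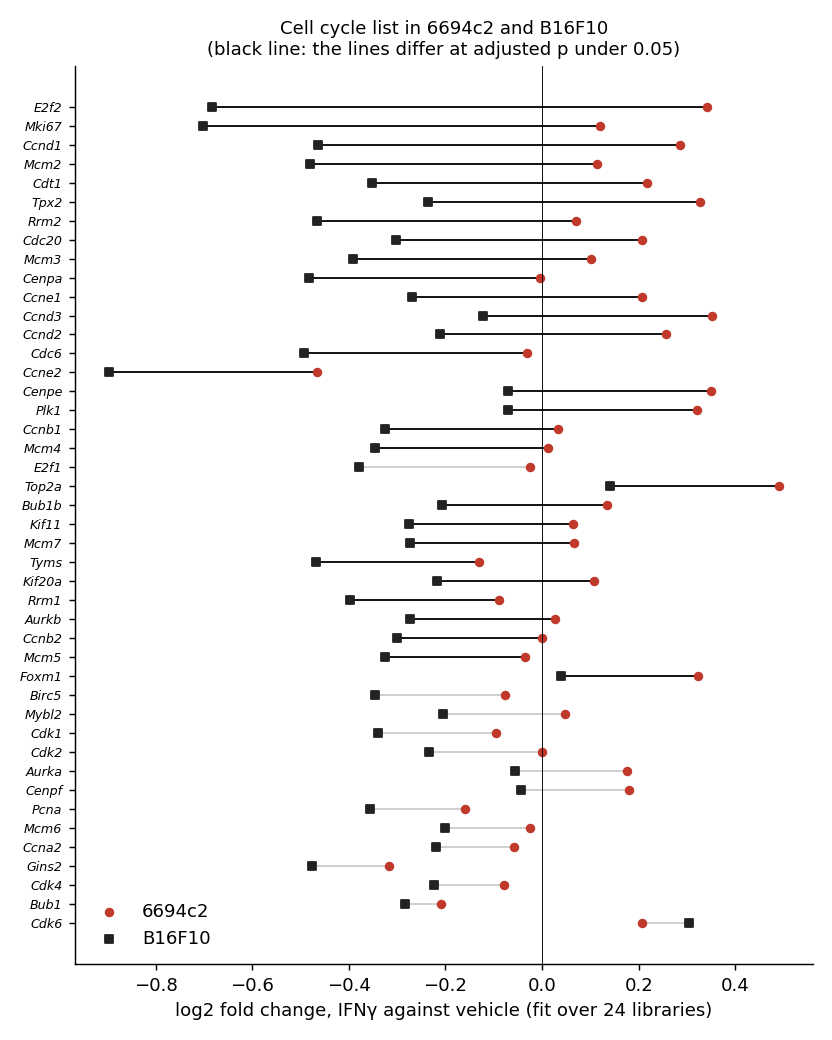
Log2 fold change with IFNγ against vehicle for the 44 cell cycle genes in 6694c2 (red circles) and B16F10 (black squares) from 1 fit over 24 libraries, ordered by their difference; a black line joins the values where the lines differed at an adjusted p under 0.05 and a grey line where they did not. The 6694c2 values lie within 0.5 of 0 and the 30 genes with a black line have a B16F10 value to the left of the 6694c2 value.

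In the class II list the effect was more positive in 6694c2 for 3 genes and less positive for 1 of 17. H2-DMb1 went from 1.73 ± 0.36 to 7.54 ± 1.55 CPM in B16F10, and its effect was larger in 6694c2 by 4.12 ± 0.381. Rfx5 differed by 0.79 and Ifi30, a lysosomal reductase, by 0.48, while H2-DMb2 differed by -1.44 (edgeR adjusted p = 0.0447). That call was lost with RLE size factors, with the filterByExpr minimum, and without 6694c2 vehicle replicate 1 or 3, 6694c2 IFNγ replicate 2 or 3, B16F10 vehicle replicate 1 or 2 or any 1 of the 3 B16F10 IFNγ replicates (adjusted p up to 0.172 over the alternatives). Ciita rose in both lines, at log2 4.66 in 6694c2 and 4.03 in B16F10, and a difference of 0.63 ± 0.447 was not called (adjusted p = 0.478).

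The study describes the line as pancreatic ductal adenocarcinoma. This identity was checked against ductal and mesenchymal genes. Keratins of simple epithelium were abundant, with Krt8 at 6816, 6958 and 7278 CPM with vehicle, Krt18 at a mean of 3039 and Krt19 at 2352 CPM, and Cdh1 (E-cadherin) was at 568 CPM. The mesenchymal filament Vim was at 3478 CPM, while Epcam was at 3.26 CPM and Cldn4, Cldn7, Grhl2 and Spint1 were under 0.5 CPM in both groups. Of 20 ductal genes 5 were higher and 4 lower with IFNγ, against a background of 9.00% higher and 6.50% lower. Krt18 rose (log2 0.57), Elf3, an epithelial transcription factor, rose (0.67), Lgals4 was lower (-0.54), Krt19 was called lower at -0.20, and Krt8, Cdh1 and Sox9 were not called. The call of Krt19 was lost without vehicle replicate 1 or 3 or IFNγ replicate 1 or 2 (adjusted p up to 0.148). Of 18 tested mesenchymal genes 3 were higher and 3 lower, against the same background. Acta2, smooth muscle actin, had 2 reads over the vehicle libraries and 3.7, 2.62 and 2.58 CPM with IFNγ, and S100a4 was lower, at 44, 67.4 and 63.9 CPM with vehicle and 29.8, 25 and 30.5 CPM with IFNγ (log2 -1.03 ± 0.158).

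Of 28 tested collagen, laminin and integrin genes 7 were lower and 2 higher, with a median of -0.05, against a background of 6.50% lower and 9.00% higher. Lamb3, a chain of the epithelial basement membrane laminin, was at 92, 85.9 and 89.6 CPM with vehicle and 46.3, 48.8 and 48.8 CPM with IFNγ (log2 -0.89 ± 0.0693). The collagen VI chains Col6a1 and Col6a2 were lower at -0.78 and -0.69, as were Itgb3 (-0.75), Itgb5 (-0.31) and Col18a1 (-0.22, not called without IFNγ replicate 1, adjusted p up to 0.0752). The integrins Itga2 (0.66) and Itga3 (0.38) were higher, and the call of Itga2 was lost with a robust fit (adjusted p = 0.104). With IFNβ, 11 of the 28 were higher and 3 lower than with IFNγ. Lamb3 was at 101 CPM with IFNβ.

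The genes that fell over 2-fold were mostly outside these lists, with 1 of 138 in them, S100a4. The 12 with the smallest p among those with separate groups and at least 1 CPM fell by 1.01 to 1.82 on the log2 scale. Il1rn, the antagonist of the IL-1 receptor, was at 45.7, 52.3 and 53.9 CPM with vehicle and 15.5, 14.9 and 12.9 CPM with IFNγ (log2 -1.82 ± 0.0879, edgeR adjusted p = 4.72e-14). With IFNβ it was at 53.8 CPM, and the IFNγ level was lower than that (log2 -1.91). Areg, a ligand of the EGF receptor, went from 81.8, 95 and 95.7 CPM to 40.2, 38.2 and 39.7 CPM, and was at 121 CPM with IFNβ. The growth factor Fgf1 was lower at -1.48 and Serpinb5 (maspin), a serpin of epithelial cells, at -1.51. Both were also called lower with IFNβ against vehicle, at -1.125 and -0.30. The imprinted gene Mest (-1.5), the carbonyl reductase Cbr3 (-1.39) and the calcium pump Atp2a3 (-1.07) were lower, and their levels were not called different from those with IFNβ.

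The remaining 5 of the 12 were Ppp1r1b (97.9 ± 2.62 to 42.3 ± 2.68 CPM), a phosphatase inhibitor, Acsbg1 (330 ± 18.9 to 161 ± 8.48 CPM), a fatty acid ligase, Fermt1 (113 ± 3.98 to 56.1 ± 1.34 CPM), an activator of integrins at focal adhesions, Add2 (57.2 ± 4.42 to 27.6 ± 2.68 CPM) of the membrane skeleton, and Fam84a (37.4 ± 1.43 to 18.1 ± 0.298 CPM). All 5 were lower than with IFNβ as well. With IFNβ all 5 were also called lower than with vehicle, at log2 fold changes of -0.59 (Add2) to -0.19 (Fermt1). Among the 10 most abundant genes that fell was Gm42418, at 4323, 5876 and 2778 CPM with vehicle and 2034, 1446 and 1923 CPM with IFNγ. Gm42418 overlaps ribosomal RNA sequence and Gm24270 is annotated as a small RNA, so both calls are uncertain, and that of Gm24270 was lost with a robust fit (adjusted p = 0.0974).

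Motif letters were counted in the RefSeq promoters, each 300 bases long, of the genes that had one. The GAS letters TTCNNNGAA and the ISRE letters GAAANNGAAA were searched on both strands, and no matches overlapped in the printed promoters. Of 27025 genes with a promoter sequence 9.55% held the GAS letters and 3.99% the ISRE letters, and of the 11846 tested genes with one 8.39% and 3.87% did. Of the 509 genes that rose over 2-fold 352 had a promoter sequence, and 18.5% held GAS and 24.4% ISRE letters. For those also higher than with IFNβ (175 of 262 with a sequence) the shares were 24% and 16.6%, and for those lower than with IFNβ (104 of 128) they were 12.5% and 43.3%. Among the genes that fell over 2-fold (91 of 138) they were 5.49% and 3.3%. These shares are a description with no test, and a match is not a bound site.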

How the data were processed

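Per the labels and the study's methods, RNA of cultured cells was sequenced in pairs of reads. The authors trimmed reads with cutadapt (1.14), checked them with fastqc (0.11.9) and multiQC (1.5) and aligned them with STAR (2.7.9a). They used Rsubread for the raw counts they deposited, of 49315 genes in each library. The submitters' processing notes list mm10, with no role given. The annotation and strand setting are not given in the sources used here. Symbols and positions come from GENCODE M21 (GRCm38), which holds 49056 of the genes, 91.4% of these with the same start, end and strand.

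Counts were tested in R (4.3.3) with edgeR (4.0.16) quasi-likelihood fits and TMM scaling over the 12 libraries of 6694c2 (genes with at least 10 reads), with contrasts against vehicle and against IFNβ, and over all 24 bulk libraries for the interaction with B16F10. Benjamini-Hochberg adjustment ran over all genes, calls were made at adjusted p under 0.05, and over 2-fold means an absolute log2 fold change over 1. With 3 libraries against 3 an exact permutation test of single values cannot go below p = 0.1. Folds of genes with 0 vehicle reads use a floor of 3 reads over the group, which covers counting error only. A gene was marked as far higher in B16F10 where the highest B16F10 group mean exceeded 10 times both the vehicle and the IFNγ mean. Library pairs of a group differed by more than sampling noise (chi-square over degrees of freedom 5.79 to 14.1), so no pair was merged as 1 library. The fits were tested on simulated data.

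The gene lists and the rule for named genes were chosen with earlier results of these data known. Named genes are list members, the 12 genes in each direction with the smallest p among those called over 2-fold with separate groups, at least 1 CPM and not far higher in B16F10, and the 10 most abundant called over 2-fold in each direction. Alternatives were DESeq2 (1.42.0), RLE size factors, other filters, a robust fit, only the 6 libraries compared, a replicate block, genes far higher in B16F10 left out, and each library left out. The 6 single-cell samples were not analysed here. Some list members are not reported here, and counts and medians of the lists include them.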

Additional observations from a re-analysis of the deposited data

Results flagged for a closer look

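The results below differed between the 2 cell lines by the interaction term of edgeR, which tests the difference of the IFNγ effects itself. Of 21138 genes, the effect was more positive in 6694c2 than in B16F10 for 955 (4.52%) and less positive for 1046 (4.95%). Among the 17 genes of the class II pathway it was more positive for 3, H2-DMb1 (log2 difference 4.12), Rfx5 (0.79) and Ifi30 (0.48). It was less positive for 1, H2-DMb2 (-1.44), a call lost under many of the alternatives, as given above.

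In the cell cycle list it was more positive for 30 of 44 genes, against 4.52% of all genes. Among factors and cyclins of the G1 phase the log2 differences were 1.02 for E2f2, 0.75 for Ccnd1, 0.47 for Ccnd2, 0.47 for Ccnd3, 0.48 for Ccne1 and 0.43 for Ccne2. Among replication genes they were 0.59 for Mcm2, 0.49 for Mcm3, 0.36 for Mcm4, 0.29 for Mcm5, 0.34 for Mcm7, 0.57 for Cdt1, 0.46 for Cdc6, 0.54 for Rrm2, 0.31 for Rrm1 and 0.34 for Tyms. Among mitotic genes they were 0.82 for Mki67, 0.56 for Tpx2, 0.51 for Cdc20, 0.48 for Cenpa, 0.42 for Cenpe, 0.39 for Plk1, 0.36 for Ccnb1, 0.30 for Ccnb2, 0.35 for Top2a, 0.34 for Bub1b, 0.34 for Kif11, 0.32 for Kif20a, 0.30 for Aurkb and 0.28 for Foxm1. The cause of these differences was not tested.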

How the results depend on the processing

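Over all genes, 174 counts of called genes under the alternatives stayed within 1.5 times the reported count and 2 did not. The counts over 2-fold against vehicle, 509 higher and 138 lower, were 475 and 129 with DESeq2 and 494 and 127 with a replicate block. Deviations of same-numbered libraries from their group means correlated at r = -0.0503 to 0.0219 over all genes tested. Counting noise of low genes pulls r towards 0, so these values cannot tell whether the replicate numbers pair the libraries. The other counts over all genes with the block were 1606 higher and 1133 lower against vehicle, 1332 and 1420 against IFNβ, and 974 and 1035 in the difference from B16F10. Lists of few or low genes, such as those of immune cells and fibroblasts, are limited by depth. The causes of the shifts below were not tested, except that leaving out genes or libraries leaves fewer to count.

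With DESeq2, the number higher against IFNβ was 12 for cell cycle (from 7), and the number lower against IFNβ was 0 for T cell (from 1). With the filter of filterByExpr, the median against vehicle was 3.19 for MHC class I (from 2.38), 1.692 for nucleic acid and pattern sensors (from 1.53), 2.88 for complement and regulators (from 2.60), -0.40 for T cell (from -0.17), -0.014 for myeloid and dendritic cell (from -0.37) and -1.30 for fibroblast (from -0.18), and the number lower against vehicle was 2 for chemokines and growth factors (from 1), and the number higher against IFNβ was 11 for cell cycle (from 7). With no filter, the median against vehicle was 1.705 for nucleic acid and pattern sensors (from 1.53) and -0.12 for myeloid and dendritic cell (from -0.37), and the number lower against vehicle was 4 for B cell (from 0), and the number lower against IFNβ was 0 for peptide transport and loading (from 1), 2 for constitutive proteasome (from 1), 2 for MHC class II pathway (from 1), 4 for B cell (from 2) and 0 for T cell (from 1), and the number higher against IFNβ was 5 for NF-kB subunits and feedback (from 3) and 1 for cholesterol synthesis and uptake (from 2). With the minimum of 10 reads over 24 libraries, the median against vehicle was 1.695 for nucleic acid and pattern sensors (from 1.53) and -0.24 for myeloid and dendritic cell (from -0.37), and the number higher against IFNβ was 0 for constitutive proteasome (from 1) and 1 for cholesterol synthesis and uptake (from 2), and the number lower against IFNβ was 2 for constitutive proteasome (from 1). With only the 6 libraries compared, the number higher against vehicle was 4 for cholesterol synthesis and uptake (from 8). With a replicate block, the number higher against IFNβ was 0 for constitutive proteasome (from 1) and 1 for cholesterol synthesis and uptake (from 2), and the number lower against IFNβ was 0 for MHC class II pathway (from 1) and 0 for T cell (from 1). Without genes over 10 times higher in B16F10, the median against vehicle was 0.92 for interferon regulatory factors (from 0.61), 2.66 for MHC class I (from 2.38), 0.74 for tryptophan, arginine and redox metabolism (from 0.17), 2.64 for type I interferon-linked antiviral genes (from 3.57), 1.40 for nucleic acid and pattern sensors (from 1.53), 3.24 for complement and regulators (from 2.60), -0.24 for myeloid and dendritic cell (from -0.37) and -0.32 for fibroblast (from -0.18), and the number higher against vehicle was 17 for type I interferon-linked antiviral genes (from 33), and the number lower against IFNβ was 17 for type I interferon-linked antiviral genes (from 34), and the number higher against IFNβ was 0 for melanocyte (from 7). With a robust fit, the number lower against vehicle was 0 for tryptophan, arginine and redox metabolism (from 1), and the number higher against vehicle was 1 for collagens, laminins and integrins (from 2). With RLE size factors, the number lower in the difference from B16F10 was 0 for MHC class II pathway (from 1).

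With each library left out in turn, these values ran over the following ranges, with the reported value in parentheses. The number lower against vehicle was 1 to 2 (1) for interferon regulatory factors, 0 to 1 (1) for constitutive proteasome, 1 to 2 (1) for chemokines and growth factors, 0 to 1 (1) for tryptophan, arginine and redox metabolism, 1 to 2 (1) for complement and regulators, 1 to 3 (2) for cell cycle, 0 to 1 (1) for MHC class II pathway, 2 to 4 (4) for ductal epithelial, 0 to 1 (1) for T cell, 0 to 1 (0) for cholesterol synthesis and uptake and 0 to 2 (0) for B cell. The median against vehicle was 0.17 to 1.04 (0.61) for interferon regulatory factors, 6.64 to 7.10 (6.94) for immunity-related GTPases, 0.17 to 0.69 (0.17) for tryptophan, arginine and redox metabolism, 1.38 to 1.84 (1.53) for nucleic acid and pattern sensors, -0.93 to 0.22 (-0.37) for myeloid and dendritic cell, 6.92 to 7.16 (7.03) for guanylate-binding proteins, 3.19 to 3.64 (3.57) for type I interferon-linked antiviral genes, -0.72 to 0.072 (-0.18) for fibroblast, 2.33 to 3.05 (2.38) for MHC class I, 2.51 to 3.24 (2.60) for complement and regulators, -0.50 to -0.28 (-0.48) for B cell, -0.41 to 0.18 (-0.17) for T cell, -0.51 to 0.30 (-0.13) for melanocyte, 0.023 to 0.34 (0.11) for NK-cell ligands and 0.82 to 0.97 (0.93) for chemokines and growth factors. The number higher against vehicle was 0 to 1 (1) for myeloid and dendritic cell, 3 to 8 (8) for cholesterol synthesis and uptake and 2 to 5 (4) for cell cycle inhibitors and MYC. The number lower against IFNβ was 0 to 2 (1) for peptide transport and loading, 0 to 2 (1) for constitutive proteasome, 1 to 3 (2) for ductal epithelial, 2 to 4 (4) for cholesterol synthesis and uptake, 0 to 1 (1) for T cell, 2 to 4 (4) for IFNγ receptor, JAK-STAT and feedback, 0 to 1 (1) for MHC class II pathway, 3 to 5 (5) for cell cycle, 0 to 1 (0) for NF-kB subunits and feedback and 2 to 4 (2) for B cell. The number higher against IFNβ was 0 to 1 (1) for constitutive proteasome, 4 to 8 (7) for cell cycle, 0 to 1 (2) for cholesterol synthesis and uptake, 0 to 1 (1) for NK-cell ligands, 3 to 9 (7) for melanocyte, 6 to 10 (10) for glycolysis and 1 to 2 (1) for mesenchymal. The number lower in the difference from B16F10 was 0 to 1 (1) for MHC class II pathway and 649 to 1007 (1046) for all genes. The number higher in the difference from B16F10 was 3 to 5 (3) for MHC class II pathway. The median in the difference from B16F10 was -0.12 to 0.33 (0.037) for MHC class II pathway. The sign of a median turned for the myeloid list without vehicle replicate 1 (0.22) and without IFNγ replicate 3 (0.18), for the T-cell list without IFNγ replicate 1 (0.18), for the fibroblast list without IFNγ replicate 2 (0.072) and for the melanocyte list without IFNγ replicate 3 (0.30). The melanocyte median has no value without genes far higher in B16F10, since all 12 members are such genes. Of 289 named genes called against vehicle, 42 lost the call under at least 1 alternative and 0 changed sign.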
